A study of Mus musculus with 6 samples.

Results

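The miR-125 family was described here through all 5 of its strands in the table of raw microRNA counts, which were mmu-miR-125a-5p, mmu-miR-125a-3p, mmu-miR-125b-5p, mmu-miR-125b-1-3p and mmu-miR-125b-2-3p (the prefix is left out below), of 1915 mouse names. They were taken by name, both arms of miR-125a and miR-125b with the 3p strands of the 2 miR-125b copies kept apart. Small RNA was sequenced from 3 primary mouse tumors, which the labels call ADT tumors and place in the oviduct, and from 3 oviducts without tumor. The tumors were Dicer1ko/D1693N, with a knocked-out Dicer1 allele beside the D1693N allele. The oviducts were Dicer1+/D1693N, so all 6 samples carried D1693N. Small RNA counts hold no Dicer1 messenger RNA, so the genotypes rest on the labels. No treatment was given. The age and strain of the mice and the driver of the knockout are not given in the labels. Tissue state and genotype changed together, and the deposited column names carried 1 tag in all tumors and another in all oviducts, so these cannot be told apart. Whether the samples within a group came from separate mice is not stated, so the p-values reflect the spread between samples, possibly only technical.

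Dicer releases short microRNAs from hairpin precursors. Its RNase IIIa domain cuts the 3p side, and its RNase IIIb domain, where D1693N lies, cuts the 5p side. The products are a 5p strand and a 3p strand. The strand loaded into Argonaute recognises messenger RNAs mainly through its seed, bases 2 to 8. The miR-125 family is the mammalian relative of lin-4 of Caenorhabditis elegans, and its 5p strand is the usual guide. Lin28, an RNA-binding protein that blocks let-7 maturation, is a well-known target of both lin-4 and miR-125.

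The mature sequences are shown to separate the strands that share a seed from those that do not, with the seed in capitals. They are RefSeq sequences on GRCm38.p6, and all 5 strands were matched by name.
miR-125a-5p: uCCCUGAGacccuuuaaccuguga
miR-125b-5p: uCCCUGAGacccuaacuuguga
miR-351-5p: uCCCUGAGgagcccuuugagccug
miR-125a-3p: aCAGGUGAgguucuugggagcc
miR-125b-1-3p: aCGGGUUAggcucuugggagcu
miR-125b-2-3p: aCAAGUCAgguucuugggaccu

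Both 5p strands began with U and shared the seed CCCUGAG. They were identical over their first 13 bases and differed after that, the miR-125a strand being 24 bases long and the miR-125b strand 22. The same seed was found in miR-351-5p, which comes from a hairpin on chromosome X (53053255 to 53053353, GRCm38) and is no member of the family by name. It was also found in miR-6394, with 0 counts in every library, and miR-6367, with 1 count in tumor 1. The 3p strands began with A and had 3 different seeds, none of which occurred in another mature name of the RefSeq table. Compared over the whole strand, seed included, they were alike. Read from their first base, miR-125b-1-3p and miR-125b-2-3p had the same base at 17 of 22 positions, and miR-125a-3p matched each of them at 18 of 22. Of the tested names with a RefSeq sequence, 61.9% of 84 5p strands began with U and 26.5% of 98 3p strands began with A.

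The hairpins show where Dicer cuts, at the inner ends of the strands, which are in capitals here.
Mir125a (chr17:17830812-17830879, GRCm38.p6, plus strand): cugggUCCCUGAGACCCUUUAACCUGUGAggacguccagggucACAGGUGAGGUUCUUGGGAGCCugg
Mir125b-1 (chr9:41581926-41582002, GRCm38.p6, plus strand): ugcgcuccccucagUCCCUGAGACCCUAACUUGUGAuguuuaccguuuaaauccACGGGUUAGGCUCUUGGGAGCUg

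Between the strands lay 14 bases in Mir125a, 18 in Mir125b-1 and 17 in Mir125b-2 (chromosome 16, 77646273 to 77646343, GRCm38). Mir125a overlaps an annotated exon of the protein-coding gene Spaca6. Mir125b-1 lies in introns of the noncoding genes 3110039I08Rik and Gm49317 and overlaps an exon of Gm28119. Mir125b-2 lies in an intron of Mir99ahg, a noncoding host gene, and overlaps C130023A14Rik, annotated as a transcript still to be verified by experiment. Each hairpin has a miR-99 or miR-100 hairpin and a let-7 hairpin upstream on its strand. Mir99b and Mirlet7e end 554 and 367 bases before Mir125a. The other clusters are looser, with Mir100 and Mirlet7a-2 50421 and 45114 bases before Mir125b-1, and Mir99a and Mirlet7c-1 47272 and 46522 bases before Mir125b-2. The 5p strand of miR-125b has the same sequence from both copies, so its reads cannot be assigned to a copy, whereas the 3p strands can.

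Mouse microRNA counts per library ranged over 154002 to 272167 in the tumors and 297039 to 580390 in the oviducts, and the 5 strands took 0.240% to 0.695% of them in the tumors and 0.378% to 0.726% in the oviducts. Tumor 1 stood apart in its makeup, since 4 strands of the smooth muscle hairpins miR-143 and miR-145a took 61.0% of its counts, 27.8% and 14.0% in tumors 2 and 3, and 44.4% to 47.5% in the oviducts. Nearly all of this was miR-143-3p, which was not called. Of the 4 strands, 2 fell, miR-145a-5p and miR-145a-3p, the first being at 50.1 CPM in tumor 1, 167 and 96.3 CPM in tumors 2 and 3, and 2602 to 3256 CPM in the oviducts. Of the 5 tested strands of the multiciliated cell families miR-34 and miR-449, 3 fell, and miR-34c-3p and miR-449a-5p were not called. The list of 6 summed to 420 to 1204 CPM, a count divided by its scaled library total and put on a common scale, in the tumors and 14806 to 21529 CPM in the oviducts, with miR-449a-5p and miR-449c-5p at 0 in tumor 2 but miR-449a-5p at 160 CPM in tumor 1, within its oviduct range of 149 to 339 CPM. Of 7 epithelial markers, such as the miR-200 family, 1 fell and 1 rose, with sums of 4147 to 7268 CPM in the tumors and 7188 to 12161 CPM in the oviducts. The 6 leukocyte markers, none of them called, summed to 1424 to 7286 CPM in the tumors and 1421 to 2394 CPM in the oviducts. The highest sum was that of tumor 2, where miR-142a-5p was at 3720 CPM, against 552 and 394 CPM in tumors 1 and 3. Of 2 tested red cell strands 1 rose, the list of 4 summing to 1868 to 11615 CPM in the tumors and 4468 to 5633 CPM in the oviducts. The 3 skeletal muscle markers, 1 tested and not called, summed to 39.4 to 712 CPM in the tumors and 579 to 960 CPM in the oviducts. Both strands of the endothelial miR-126a rose, their sum being 15136 to 20113 CPM in the tumors and 7117 to 9508 CPM in the oviducts. Fewer cells of a type and less RNA per cell cannot be told apart in such bulk samples, and the part of cell makeup in the results below was not tested.

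All 5 strands passed the low-count filter, and all 5 changed, the 5p strands falling and the 3p strands rising in the tumors. Calls rest on edgeR's quasi-likelihood test across 227 microRNAs, at a Benjamini-Hochberg adjusted p under 0.05. Levels are CPM scaled with TMM factors (trimmed mean of M-values). They are relative to the rest of the library and do not give the amount of a strand per cell. That 2 of 2 5p strands fell has to be read against 48.4% of the 95 tested 5p names that fell, and that 3 of 3 3p strands rose against 41.8% of the 110 tested 3p names that rose. Over all names, 25.6% fell and 26.9% rose. The CPM of the groups did not overlap for any of the 5 strands, as for 60.4% of all tested names.

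The 5p strands, the usual guides, came first in the oviducts and lost that place in the tumors. For miR-125b-5p, 54, 34 and 48 counts were found in tumors 1, 2 and 3, against 1030, 1699 and 449 in oviducts 1, 2 and 3. Scaled, these were 271, 145 and 210 CPM in the tumors, against 3198, 3089 and 1768 CPM in the oviducts. Every tumor lay far below every oviduct. The mean was 209 ± 62.7 CPM in the tumors and 2685 ± 796 CPM in the oviducts (SD, n = 3 each), 12.9-fold lower in the tumors (edgeR log2 change -3.69, SE 0.41, adjusted p = 6.98e-05). This was the eighth lowest log2 change of the 95 tested 5p names.

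The other 5p strand, miR-125a-5p, fell as well. Its counts were 134, 225 and 162 in the tumors, against 1066, 2183 and 544 in the oviducts, which scaled to 672, 962 and 709 CPM against 3310, 3968 and 2142 CPM. Here too all tumors lay below all oviducts, although the lowest oviduct was little more than 2 times the highest tumor. The mean was 781 ± 158 CPM in the tumors and 3140 ± 925 CPM in the oviducts (SD, n = 3 each), 4.02-fold lower in the tumors (edgeR log2 change -2.01, SE 0.36, adjusted p = 0.00127). The median log2 change of all tested 5p names was -1.04.

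The 3p strands, usually the discarded passengers, rose, and that of miR-125a did so from very few reads. Counts of miR-125a-3p were 27, 53 and 51 in the tumors, against 4, 10 and 5 in the oviducts, where the floor of 3 counts corresponded to 5.45 to 11.8 CPM. Its levels were 135, 227 and 223 CPM in the tumors, against 12.4, 18.2 and 19.7 CPM in the oviducts. The groups lay well apart. The rise was 11.4-fold (log2 3.51, SE 0.56, edgeR adjusted p = 0.000674), the largest among the 3 strands, although its mean level was the lowest of the family in both groups.

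The copies of miR-125b could be followed separately through their 3p strands. Copy 1, on chromosome 9, gave miR-125b-1-3p counts of 203, 370 and 492 in the tumors, against 61, 135 and 46 in the oviducts. These were 1018, 1582 and 2154 CPM in the tumors, against 189, 245 and 181 CPM in the oviducts, so the lowest tumor was more than 4 times the highest oviduct. The rise was 7.68-fold (log2 2.94, SE 0.38, edgeR adjusted p = 0.000171). Copy 2, on chromosome 16, gave miR-125b-2-3p counts of 235, 207 and 318 in the tumors, against 163, 184 and 78 in the oviducts. Scaled, the levels were 1179, 885 and 1392 CPM against 506, 334 and 307 CPM. The groups did not overlap, but they lay closer together than those of copy 1. The rise was 3.01-fold (log2 1.59, SE 0.34, edgeR adjusted p = 0.00321), beside a median log2 change of 0.89 for all tested 3p names. It was not called without oviduct 3 (log2 1.14, adjusted p = 0.0778), nor with TMM factors taken from 3p names alone (log2 0.67, adjusted p = 0.127), and its adjusted p was 0.000206 to 0.127 over all settings.

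**Figure D1:**
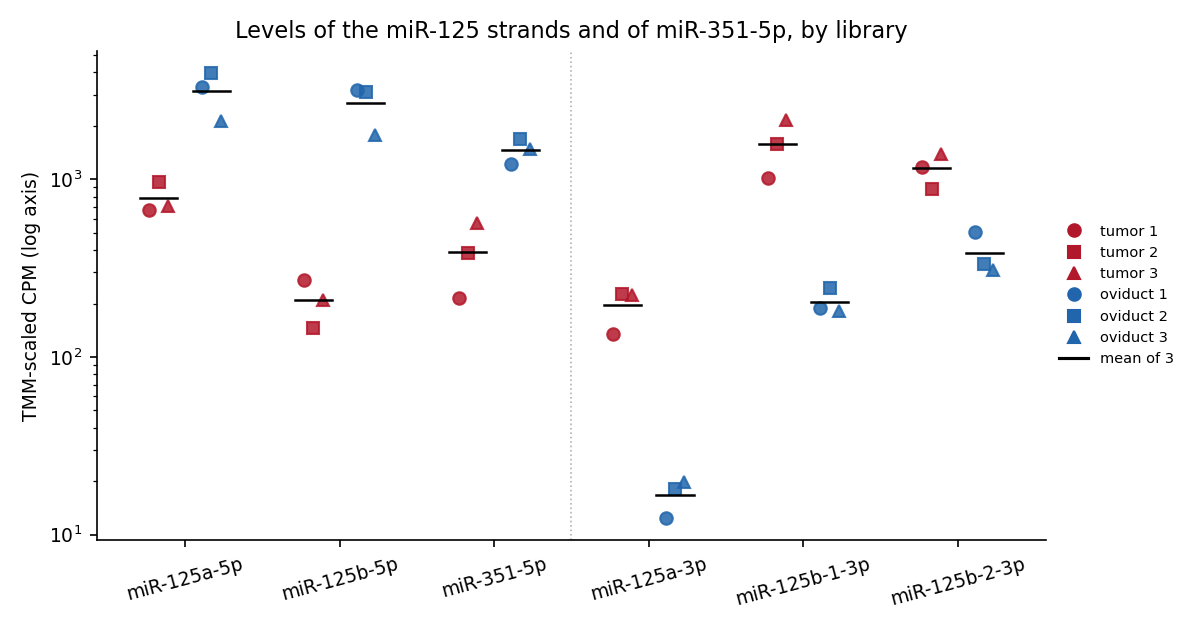
TMM-scaled CPM on a log axis for the 5 miR-125 strands and miR-351-5p, with 1 point per library and a bar at the mean of 3. In the 3 strands on the left the tumors lie below the oviducts, and in the 3 strands on the right above them.

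The order of the strands changed with these shifts. In the tumors miR-125b-1-3p came first by mean CPM (1585 ± 568), followed by miR-125b-2-3p (1152 ± 255), miR-125a-5p (781 ± 158), miR-125b-5p (209 ± 62.7) and miR-125a-3p (195 ± 51.7). In the oviducts the order was miR-125a-5p (3140 ± 925), miR-125b-5p (2685 ± 796), miR-125b-2-3p (383 ± 108), miR-125b-1-3p (205 ± 35.0) and miR-125a-3p (16.8 ± 3.83; SD, n = 3 each throughout). Of neighbours in the tumor order, only miR-125a-5p and miR-125b-5p had ranges that did not overlap. In the oviduct order, only miR-125a-5p and miR-125b-5p overlapped. Levels of different strands also depend on how well each sequence is ligated and amplified, which was not measured.

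Summed, the 3p strands exceeded the 5p strands in every tumor and fell short of them in every oviduct. The 5p strands together had 990 ± 102 CPM in the tumors and 5825 ± 1682 CPM in the oviducts (SD, n = 3 each). The 3p strands together had 2932 ± 748 CPM in the tumors and 605 ± 100.3 CPM in the oviducts.

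The balance of strands within a hairpin needs no scaling between libraries, because both are read in the same library. In miR-125b the 5p strand took 11.0% (exact Clopper-Pearson 95% interval 8.35 to 14.1), 5.56% (3.88 to 7.69) and 5.59% (4.15 to 7.35) of the hairpin's counts in tumors 1, 2 and 3. It took 82.1% (79.9 to 84.2), 84.2% (82.5 to 85.8) and 78.4% (74.8 to 81.7) in oviducts 1, 2 and 3. Such intervals and floors account for counting error alone, because amplified reads lacking molecular identifiers are not separate molecules. The main strand of miR-125b was thus 3p in all tumors and 5p in all oviducts, and the interval of tumor 1 lay above those of the other tumors. The mean share was 7.38% ± 3.12 in the tumors and 81.6% ± 2.96 in the oviducts (SD, n = 3 each). The ratio of 5p to 3p counts fell 58.3-fold, a limma log2 change of -5.87 (SE 0.59, adjusted p = 2.78e-05).

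In miR-125a the 5p strand remained the main product. It took 83.2% (76.5 to 88.6), 80.9% (75.8 to 85.4) and 76.1% (69.7 to 81.6) of its reads in the tumors, and 99.6% (99.05 to 99.9), 99.5% (99.2 to 99.8) and 99.1% (97.9 to 99.7) in the oviducts. No tumor interval reached that of an oviduct. The pooled counts were 521 for 5p and 131 for 3p in the tumors, and 3793 and 19 in the oviducts. The ratio fell 42.2-fold, a limma log2 change of -5.40 (SE 0.61, adjusted p = 4.68e-05). The ratio fell in 47.2% of all 142 hairpins tested, with a median change of -1.53. The change of miR-125b was the eleventh lowest and that of miR-125a the fifteenth lowest of the 142. Hairpins were kept by the total of both strands alone. This share and these ranks therefore include ratios that rest on very few counts of 1 strand, such as that of miR-351 below.

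The hairpins ended on different sides of an even balance and started from different points. Their changes were not shown to differ. The log2 ratio of miR-125a exceeded that of miR-125b by 5.30, 6.14 and 5.72 in the tumors and by 5.69, 5.29 and 4.78 in the oviducts, ranges that overlap. The difference between the group means was 0.47 (two-sided exact permutation p = 0.2, adjusted p = 0.2), where 3 against 3 allows no p below 0.1. It was 0.99 when 5 rather than 0.5 was added to each count. The complete turn from a 5p majority in all 3 oviducts to a 3p majority in all 3 tumors was found in 8 of the 142 hairpins, among them miR-125b, miR-99a and miR-99b, but not miR-125a. By the mean log2 ratio, 74 hairpins had more 5p than 3p in the oviducts, and 14 of these had more 3p in the tumors.

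**Figure D2:**
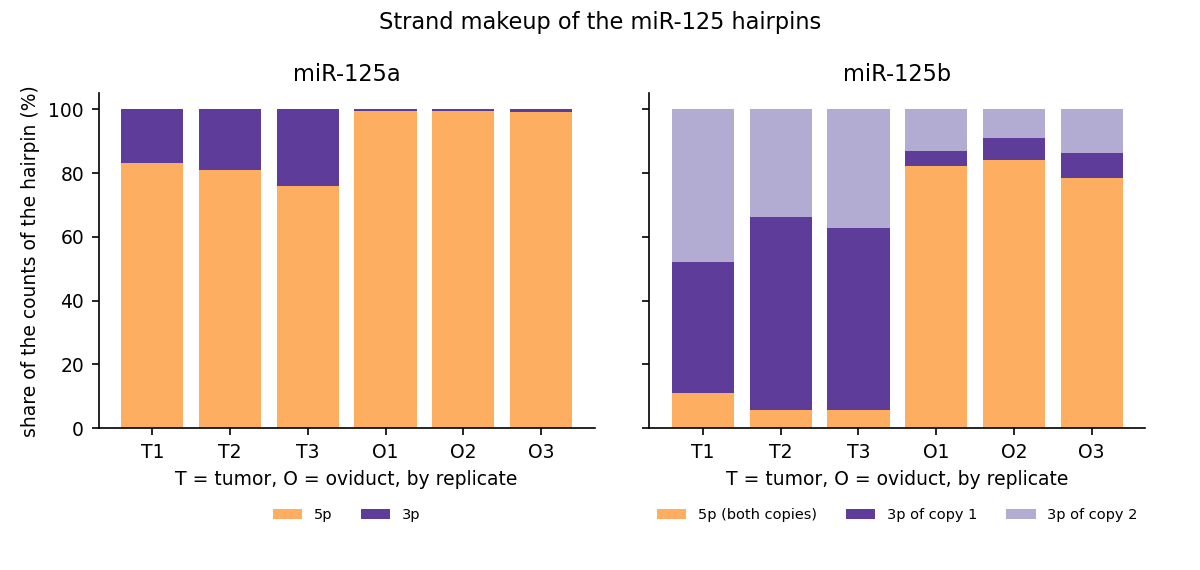
Share of each strand in the counts of its hairpin (%, stacked to the whole), per library. In miR-125b the 5p share is 5.56% to 11.0% in the tumors and 78.4% to 84.2% in the oviducts, while in miR-125a it is 76.1% to 83.2% in the tumors and 99.1% to 99.6% in the oviducts.

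Set against each copy's own 3p strand, miR-125b-5p lost ground to both. Its log2 ratio to miR-125b-1-3p was -1.90, -3.42 and -3.34 in the tumors and 4.07, 3.65 and 3.27 in the oviducts, a change of -6.55 (SE 0.64, limma adjusted p = 2.37e-05). The ratio to miR-125b-2-3p was -2.11, -2.59 and -2.72 in the tumors and 2.66, 3.20 and 2.52 in the oviducts, a change of -5.26 (SE 0.57, adjusted p = 4.32e-05). The numerator of both ratios sums the 5p reads of both copies, so neither is the ratio of a single hairpin.

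The part of copy 1 in the miR-125b 3p counts was higher in each tumor than in any oviduct. Its share was 46.3% (41.6 to 51.1), 64.1% (60.1 to 68.0) and 60.7% (57.3 to 64.1) in the tumors, and 27.2% (21.5 to 33.6), 42.3% (36.8 to 47.9) and 37.1% (28.6 to 46.2) in the oviducts. The intervals of tumor 1 and oviduct 2 overlapped. The log2 ratio of copy 1 to copy 2 was higher by 1.29 in the tumors, a 2.44-fold difference (two-sided exact permutation p = 0.1, the smallest possible, adjusted p = 0.125 over 5 such comparisons).

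The makeup of the 5p pool was compared in the same way. Of the miR-125 5p counts, miR-125a-5p took 71.3% (64.2 to 77.6), 86.9% (82.1 to 90.7) and 77.1% (70.9 to 82.6) in the tumors, and 50.9% (48.7 to 53.0), 56.2% (54.7 to 57.8) and 54.8% (51.6 to 57.9) in the oviducts. Each tumor lay above each oviduct with no overlap of intervals. The log2 ratio of miR-125a-5p to miR-125b-5p was higher by 1.69 in the tumors (3.23-fold, two-sided exact permutation p = 0.1, the smallest possible, adjusted p = 0.125). Reads cut short within the 13 bases that both strands share could have been assigned to either, and how such reads were treated is not given in the sources used here.

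The strand that carries the same seed outside the family, miR-351-5p, fell too, with 216, 385 and 565 CPM in the tumors, against 1217, 1676 and 1472 CPM in the oviducts (log2 -1.90, SE 0.39, edgeR adjusted p = 0.00246). The 3p strand of its hairpin had 1 count in each group. The 5p:3p ratio of that hairpin was tested and called lower (log2 -2.69, SE 0.96, limma adjusted p = 0.0391). With so few 3p counts, it says little about strand balance. Together the 3 strands with the seed CCCUGAG summed to 1158, 1492 and 1484 CPM in the tumors, against 7726, 8733 and 5381 CPM in the oviducts. The sums did not overlap, and the mean log2 sum was lower by 2.38 in the tumors, a 5.21-fold difference (two-sided exact permutation p = 0.1, the smallest possible, adjusted p = 0.125). The comparison of these sums was not planned beforehand. Within this pool miR-125b-5p had 15.8% ± 6.96 of the counts in the tumors and 36.5% ± 4.40 in the oviducts (SD, n = 3 each). The share of miR-125a-5p was 56.8% ± 8.41 in the tumors and 42.7% ± 2.83 in the oviducts, and that of miR-351-5p was 27.5% ± 9.83 in the tumors and 20.8% ± 5.96 in the oviducts.

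With both strands counted together, the total of miR-125a was called lower and that of miR-125b was not called. The total of miR-125a was 888, 1196 and 937 CPM in the tumors, against 3168, 3777 and 2152 CPM in the oviducts. The groups were apart, and the total fell 3.01-fold (log2 -1.59, SE 0.31, edgeR adjusted p = 0.00495, fitted across 183 hairpin totals), as did 17.5% of hairpin totals. With library totals alone as the scale this call was lost (log2 -1.26, adjusted p = 0.0712, in a range of 7.27e-07 to 0.0712 over all settings). The total of miR-125b, over both copies, was 2713, 2630 and 3774 CPM in the tumors, against 3712, 3476 and 2246 CPM in the oviducts. These ranges overlapped, and the total was not called (log2 -0.05, SE 0.32, edgeR adjusted p = 0.879), its sign turning with library totals alone (log2 0.31) and upper-quartile factors (log2 0.25). For miR-125b the 5p strand fell and the 3p strands rose with no called change of the total. That does not show that loss and gain matched, as the balance moved with the scaling. For miR-125a the 3p strand gained less in mean CPM than the 5p strand lost.

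The difference between these totals was larger than the spread within the groups. The log2 ratio of the miR-125a total to the miR-125b total was -1.61, -1.13 and -2.01 in the tumors and -0.23, 0.12 and -0.06 in the oviducts. The tumors were all below the oviducts, by 1.53 on average or 2.88-fold (two-sided exact permutation p = 0.1, the smallest possible, adjusted p = 0.125). This comparison was chosen after the totals had been seen.

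**Figure D3:**
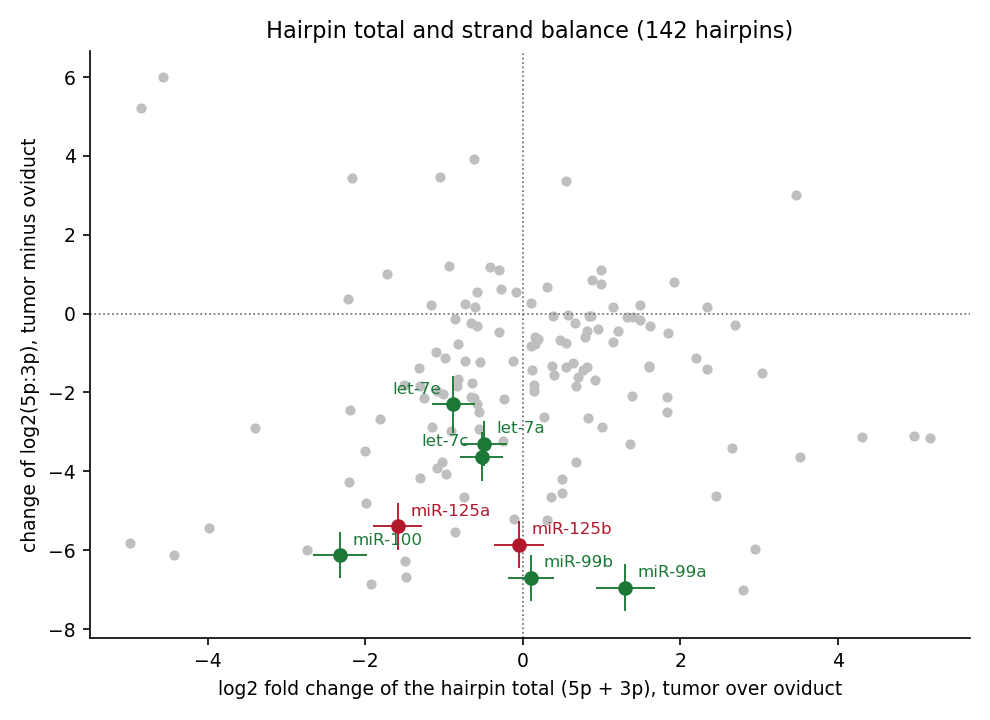
Each point is 1 of 142 hairpins, with the log2 fold change of its summed strands (tumor over oviduct) on the x axis and the change of its log2 5p:3p ratio (tumor minus oviduct) on the y axis, and SE bars for the named hairpins. The miR-125a and miR-125b points lie at -5.40 and -5.87 on the y axis but at -1.59 and -0.05 on the x axis.

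The hairpins encoded beside miR-125 shifted in the same direction between strands, where let-7a and let-7c were counted over all their loci. They are miR-99b and let-7e beside miR-125a, miR-100 and let-7a beside copy 1 of miR-125b, and miR-99a and let-7c beside copy 2. Of their 6 tested 5p strands, 4 fell and 2 were not called, and of 6 tested 3p strands, 5 rose and 1 was not called, beside the shares of all names given above. The count of falls was 2 with library totals alone, where let-7e-5p and miR-99b-5p were not called (adjusted p = 0.287 and 0.114). It was 6 with TMM factors from 3p names, with no low-count filter, among names averaging 10 CPM or more and without tumor 1. The uncalled 5p strands were let-7a-5p (log2 -0.69, SE 0.30, edgeR adjusted p = 0.0716) and let-7c-5p (log2 -0.73, SE 0.29, adjusted p = 0.0560), each made from more than 1 locus, of which only 1 lies beside a miR-125 hairpin. The uncalled 3p strand was let-7e-3p (log2 1.09, SE 0.57). Counts of let-7a-1-3p and let-7c-2-3p were identical in all libraries and are therefore 1 result, and both come from loci outside these clusters, whose own let-7a-2-3p and let-7c-1-3p did not pass the low-count filter. With copies pooled, the 5p:3p ratio fell in all 6 partner hairpins, beside 47.2% of all hairpins, with log2 changes from -2.30 (let-7e) to -6.95 (miR-99a). The ratios of let-7a and let-7c rest mostly on those identical 3p counts, so they are not separate results. They also say little about the let-7a and let-7c hairpins that lie beside miR-125.

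Totals of hairpins in 1 cluster were not all called the same way, and the differences between them were not tested. Beside miR-125a, whose total fell, the total of miR-99b was not called (log2 0.11, SE 0.29) and that of let-7e fell (log2 -0.88, SE 0.27, edgeR adjusted p = 0.0314). Beside miR-125b, the total of miR-100 fell 4.99-fold (log2 -2.32, SE 0.35, adjusted p = 0.00146) and that of miR-99a rose 2.46-fold (log2 1.30, SE 0.37, adjusted p = 0.0240). The totals of let-7a (log2 -0.49, SE 0.29, edgeR adjusted p = 0.184) and let-7c (log2 -0.52, SE 0.27, adjusted p = 0.151) were not called. For the copies themselves the only separate measure was the 3p strand. In the cluster of copy 1, miR-125b-1-3p rose 7.68-fold and miR-100-3p 9.82-fold, and in the cluster of copy 2, miR-125b-2-3p rose 3.01-fold and miR-99a-3p 31.3-fold. The rise of miR-100-3p rests on 11 oviduct counts. Its levels in oviducts 1 and 3 (6.21 and 3.94 CPM) lay below the floor of 3 counts (9.32 and 11.8 CPM).

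**Figure D4:**
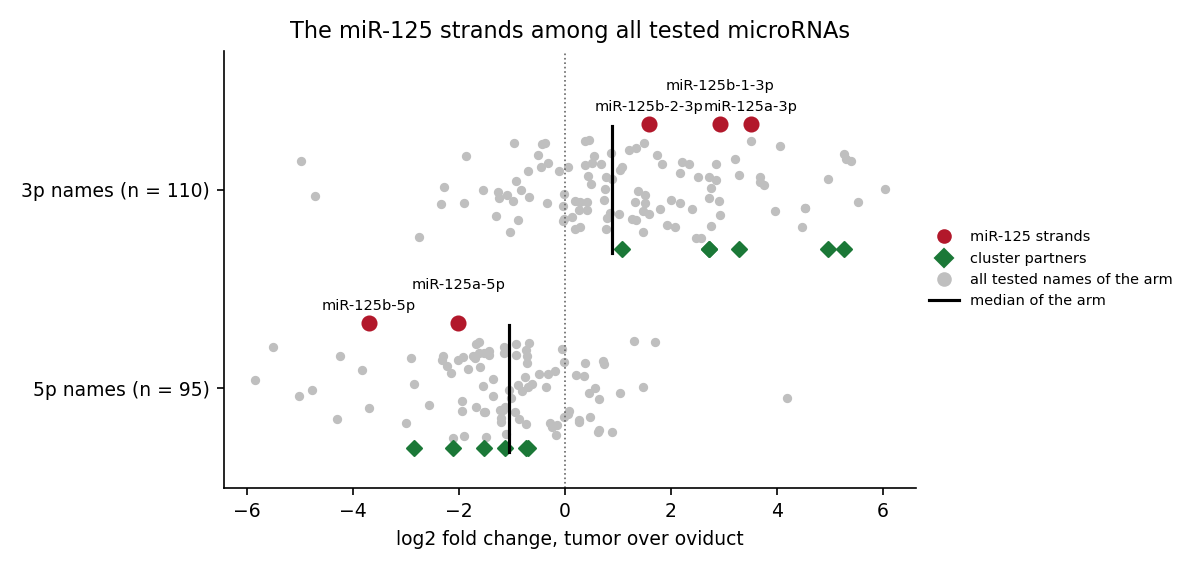
Log2 fold change (tumor over oviduct) of all tested 5p names (n = 95) and 3p names (n = 110), spread vertically only for legibility, with the miR-125 strands in red, the cluster partners as green diamonds and the median of each arm as a black line. The red points of the 5p arm lie left of its median of -1.04 and those of the 3p arm right of its median of 0.89. The green 3p diamonds include let-7a-1-3p and let-7c-2-3p, which have identical counts and come from loci outside the clusters.

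Across the 6 libraries, the names whose profile lay nearest to each strand were found by the root mean square difference of log2 CPM centred on the oviduct mean, among 185 other names that averaged 100 CPM or more in either group. The profile of miR-125a-5p was nearest to those of miR-29c-3p (0.20), miR-196b-5p (0.28) and miR-423-5p (0.29). That of miR-125b-5p had no close neighbour, the nearest being miR-100-5p (0.63), miR-541-5p (0.99) and miR-92b-3p (1.06). That of miR-125b-1-3p was nearest to miR-199a-3p and miR-199b-3p (0.21 each, with identical counts) and miR-214-3p (0.21). For miR-125b-2-3p the nearest were miR-301a-3p (0.22), miR-19b-3p (0.30) and miR-152-3p (0.31). For miR-125a-3p they were miR-1957a (0.36), miR-125b-1-3p (0.47) and, with identical counts, let-7c-2-3p and let-7a-1-3p (0.52 each). The copies of miR-125b thus had different neighbours. These distances are descriptions over 6 libraries in 2 groups, and any name that changed by a similar amount lies near.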

How the data were processed

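The authors deposited raw whole-number counts per mature microRNA name, with no normalization. Per the labels' protocols, RNA was extracted with a miRNeasy kit and libraries were made with an Illumina TruSeq small RNA kit. Per the submitters' processing notes, adapters were trimmed with cutadapt. The aligner, counter, microRNA reference, build and the treatment of reads that match several names are not given in any source used here. The series text mentions 4 tumors and 5 oviducts, and the 3 tumors and 3 oviducts in the table were analysed. Names of other species (67 names, 10 counts) were left out.

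Groups came from the labels. Chi-square per degree of freedom between libraries of a group was at least 28.8, so no pair differed by counting error alone, which does not show separate mice. Levels were tested with edgeR 4.0.16 in R 4.3.3 (filterByExpr with a minimum count of 10, TMM factors of 0.733 to 1.48 in the tumors and 0.855 to 0.948 in the oviducts, robust quasi-likelihood test). The 227 tested names held at least 99.3% of the counts of every library. Hairpin totals summed all names of a hairpin, copies pooled, and had their own TMM factors. The log2 ratio of (5p + 0.5) to (3p + 0.5) counts was tested with limma 3.58.1 in hairpins averaging 20 or more counts per library. Single values were compared with exact permutation tests (SciPy 1.17.1). Other settings included DESeq2 1.42.0. The floor of 3 counts corresponded to 12.8 to 15.0 CPM in the tumors and 5.45 to 11.8 CPM in the oviducts. Positions came from GENCODE M21 and RefSeq, both on GRCm38, and serve for names and locations only.

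The members and lists were chosen with earlier results of these data known. Named microRNAs were the 5 members, the arms of 6 cluster partners, names with the same seed and, per member, the 3 names nearest in profile.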

Additional observations from a re-analysis of the deposited data

How the results depend on the processing

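Calls of miR-125a-5p, miR-125a-3p, miR-125b-5p and miR-125b-1-3p kept their direction and their call in all 15 alternatives, and those of miR-125b-2-3p in 13 of 15. Their sizes moved with the setting, the log2 change lying between -2.91 and -1.58 for miR-125a-5p, 2.62 and 3.98 for miR-125a-3p, -4.61 and -3.36 for miR-125b-5p, 2.01 and 3.45 for miR-125b-1-3p, and 0.67 and 2.01 for miR-125b-2-3p. Without 1 library each, 2 members were called lower in every fit and 2 to 3 higher. The log2 5p:3p ratios were called in all 14 alternatives, between -5.79 and -5.16 for miR-125a and between -6.22 and -5.69 for miR-125b when 1 library was left out. The hairpin total of miR-125a was not called with library totals alone (log2 -1.26), and lay between -2.02 and -1.56 without 1 library. That of miR-125b, not called in any setting, was 0.31 with library totals alone, 0.25 with upper-quartile factors, 0.0084 without tumor 2 and between -0.46 and 0.0084 without 1 library. Of the partner strands, 4 were called lower, 2 with library totals alone, 6 with TMM factors from 3p names, with no low-count filter or among names averaging 10 CPM or more, and 4 to 6 without 1 library. With library totals alone the difference of the mean log2 seed sums (tumor minus oviduct) was -2.03 rather than -2.38. The difference between the ratio changes of the hairpins was 0.99 with 5 added to each count. The causes were not tested.

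Over all names, 58 were called lower and 61 higher. These counts were 27 lower with library totals alone, 92 lower with TMM factors from 3p names, 98 higher with no low-count filter, and 42 to 73 lower and 61 to 71 higher without 1 library. The median log2 change of all names was 0.20, against 0.65 with library totals alone and -0.73 with TMM factors from 3p names. Relative to the median, over the settings with all libraries, the 5p strands stayed between -4.82 and -2.07 and the 3p strands between 0.47 and 3.41.

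With the replicate number as a block, the ratios changed by -5.40 for miR-125a and -5.87 for miR-125b as before (limma adjusted p = 0.000510 for both), miR-125b-2-3p by 1.59 (edgeR adjusted p = 0.00619), and 108 rather than 119 names were called. Same-numbered libraries did not deviate together (r = -0.07, 0.04 and -0.13 across microRNAs, and -0.08 to 0.12 for libraries of different numbers). With 3 libraries per group, this cannot show whether same-numbered samples shared a mouse or a batch, which the labels do not state. Depth limits the miR-125a ratio through the 19 oviduct counts of its 3p strand.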
